A study of Mus musculus with 12 samples.

Results

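This report follows 3 rows of a mouse count table that are read as Mgl2 and Mrc1, genes for a pair of C-type lectin receptors used as markers of alternatively activated macrophages. They are the rows ENSMUSG00000093989 (labelled Rnasek), ENSMUSG00000000320 (labelled Alox12) and ENSMUSG00000026712 (labelled Mrc1), 3 of the 57010 rows deposited. They were chosen by name, with the comparisons of LPS_EV and IL10_EV with control_EV already known, so their values in those comparisons are a description with no test. RNA-seq was done on BV2 cells, an immortalised mouse microglial line, kept for 24 h with extracellular vesicles (EVs, membrane particles that cells release) from other BV2 cultures. The groups are named by what the vesicle-giving cells had received: nothing further (control_EV), the bacterial product LPS (LPS_EV), the cytokine TGF-β (TGFB_EV) or the cytokine IL-10 (IL10_EV), with 3 libraries in each of the 4 groups. All groups received vesicles, so no group shows BV2 cells without them, and all are a single immortalised line. No group received an agent without vesicles, so agent carried over with the vesicles cannot be told apart from the vesicles themselves. Whether replicates were separate cultures is not stated, so p-values measure the spread between these libraries, which may be technical. In bulk RNA, fewer cells with a transcript and less of it per cell cannot be told apart.

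Mgl2 (macrophage galactose-type lectin 2, CD301b) is a membrane receptor that binds sugars ending in galactose or N-acetylgalactosamine. Clec10a (CD301a) is its close relative, encoded next to it. Mrc1 encodes the mannose receptor CD206, which takes up glycoproteins ending in mannose, fucose or N-acetylglucosamine. Both Mgl2 and Mrc1 are induced in macrophages by IL-4 and IL-13 and are widely used, with Arg1, Retnla and Chil3, to mark that state.

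Many row labels in this table do not sit on the genes they name (18.4% of rows of at least 5 CPM met their own gene, the Mrc1 row among them), so each row was read by the gene that its exons met after an estimated displacement along the chromosome. In GRCm38 the gene labelled Rnasek lies at chr11:70238124-70239842 and Alox12 at chr11:70241457-70255353, both on the minus strand. The displacement fitted there was -109.2 kb, in a stretch of 1474 rows with a score of 40 against -191 for no displacement. After it, exon block 3 of the Rnasek row covered the 114 bases of exon 1 of Mgl2, which is 5′ UTR. Exon block 4 of the Alox12 row met 113 bases of the merged exons of Mgl2, among them all 107 bases of exon 9. Blocks are exons merged over transcripts and counted by rising coordinate, against the direction of transcription of these minus-strand genes. Mgl2 lies at chr11:70130329-70137550 on the plus strand, and the library kits do not mark strand. No other row met Mgl2, and neither row met another protein-coding gene. Between -109.3 and -109.1 kb the shared length stayed at 114 bases for the Rnasek row and ran from 45 to 122 for the Alox12 row. With a lower penalty for changing displacement, 5 in place of 15, the fit placed both rows at -571 kb, where both met Eif4a1, the Alox12 row also Senp3 and others, and neither met Mgl2. That stretch held only these 2 rows, with a score of 6, and did not outscore the best displacement elsewhere (margin 0). The margin of 216 in the main fit sums over 1474 rows, so it is no measure of these 2. Eif4a1 is among the widely expressed genes that the fit rewards, and Mgl2 is not. A penalty of 50 gave the same placement as 15. The reading as Mgl2 is therefore an estimate that this setting can change.

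**Figure D1:**
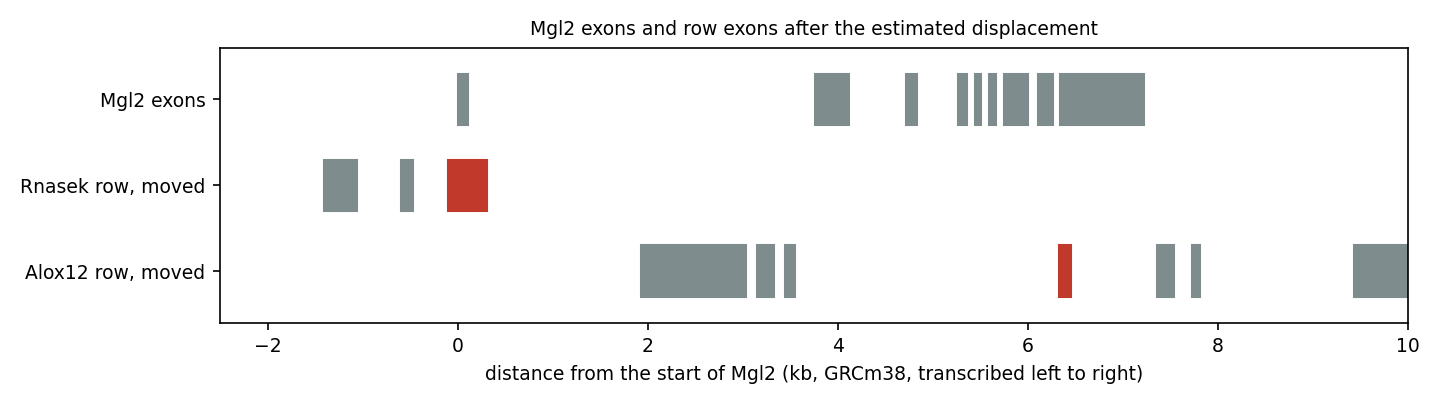
Exons of Mgl2 (top) and of the rows labelled Rnasek and Alox12 after the estimated displacement of -109.2 kb, against distance in kb from the start of Mgl2. Boxes are exons merged over transcripts; the red boxes are the only row exons that met Mgl2, at its first exon and at exon 9.

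The stretch under the Alox12 row is shown because it is coding, shared closely with Clec10a and lies under the row with more counts of the pair. Exon 9 of Mgl2 (chr11:70136670-70136776, plus strand, GRCm38) and its counterpart in Clec10a (chr11:70170160-70170266, plus strand) are printed 5′ to 3′ from GENCODE M21 transcripts, with capitals at the 7 positions that differ.
Mgl2: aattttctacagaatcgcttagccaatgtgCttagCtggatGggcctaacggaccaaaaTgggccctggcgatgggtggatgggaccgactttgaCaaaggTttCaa
Clec10a: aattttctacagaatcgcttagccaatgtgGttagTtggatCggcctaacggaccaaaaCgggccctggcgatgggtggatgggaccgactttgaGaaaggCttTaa
The 107 bases were 93.5% identical, with a longest shared run of 35 bases. Exon 8 of Mgl2 was identical to Clec10a over all of its 152 bases, but no row met it. Exon 1, under the Rnasek row, was 79.8% identical. No row met Clec10a, so its level was not measured, and how the authors' counting treated reads shared by both genes is not given in the sources used here. The row labelled Mgl2 itself met Dlg4, a synaptic scaffold gene, at a mean of 11.98 CPM and is not a measure of Mgl2.

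The row labelled Mrc1 met its own gene (chr2:14229392-14332057, plus strand). Its displacement was estimated at 4.6 kb, the outermost nearby values within 2 score units of it being 4.5 and 6.6 kb, in a stretch of 88 rows whose score of 0 lay close to the -8 of no displacement. It shared 334 bases with Mrc1 exons there and between 59 and 546 over that range, so which exons were counted was not settled. A penalty of 5 moved the estimate to 2.1 kb, where the row still met Mrc1 only. Levels are given as CPM, counts divided by library size on one common scale, after TMM normalisation. Because each row holds an unknown part of its transcript, levels are not compared between genes.

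Both Mgl2 rows were low in 2 of the 3 libraries of LPS_EV and of IL10_EV. The row labelled Rnasek stood at 65.3, 55.1 and 53.9 CPM in control_EV replicates 1, 2 and 3. It stood at 43.9, 22.4 and 23.6 CPM in LPS_EV, at 47.1, 35.6 and 69.5 CPM in TGFB_EV and at 40.2, 22.7 and 26.0 CPM in IL10_EV. All LPS_EV and IL10_EV libraries lay below the lowest control library, while TGFB_EV lay on both sides of the controls. The group means were 58.1 ± 6.27, 29.9 ± 12.1, 50.7 ± 17.2 and 29.6 ± 9.32 CPM (SD, n = 3 each) for control_EV, LPS_EV, TGFB_EV and IL10_EV.

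The row labelled Alox12 had the same order of libraries in every group. It stood at 115.7, 80.3 and 77.3 CPM in control_EV, at 73.7, 26.0 and 36.0 CPM in LPS_EV, at 77.2, 48.5 and 109.6 CPM in TGFB_EV and at 76.5, 37.2 and 41.2 CPM in IL10_EV. The highest libraries of LPS_EV and IL10_EV were just under the lowest control library, at 77.3 CPM. The means were 91.1 ± 21.4, 45.2 ± 25.1, 78.4 ± 30.6 and 51.7 ± 21.6 CPM (SD, n = 3 each). Summed, the Mgl2 rows averaged 149 ± 27.7 CPM for control_EV, 75.1 ± 37.1 for LPS_EV, 129 ± 47.7 for TGFB_EV and 81.3 ± 30.9 for IL10_EV (SD, n = 3 each), or 50.4%, 86.5% and 54.5% of the control mean for the treated groups.

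Mrc1 varied far less in proportion. Its row stood at 848, 795 and 798 CPM in control_EV, at 749, 607 and 631 CPM in LPS_EV, at 696, 699 and 863 CPM in TGFB_EV and at 825, 693 and 718 CPM in IL10_EV. LPS_EV lay wholly below the controls, and the other groups overlapped them. The means were 814 ± 29.9, 662 ± 76.1, 752 ± 95.4 and 745 ± 70.6 CPM (SD, n = 3 each), so the treated groups held 81.4%, 92.4% and 91.6% of the control mean. In the order of means, control_EV was the highest and TGFB_EV the next for all 3 rows. IL10_EV was the lowest for the Rnasek row and LPS_EV for the others, and neighbours in each order overlapped.

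**Figure D2:**
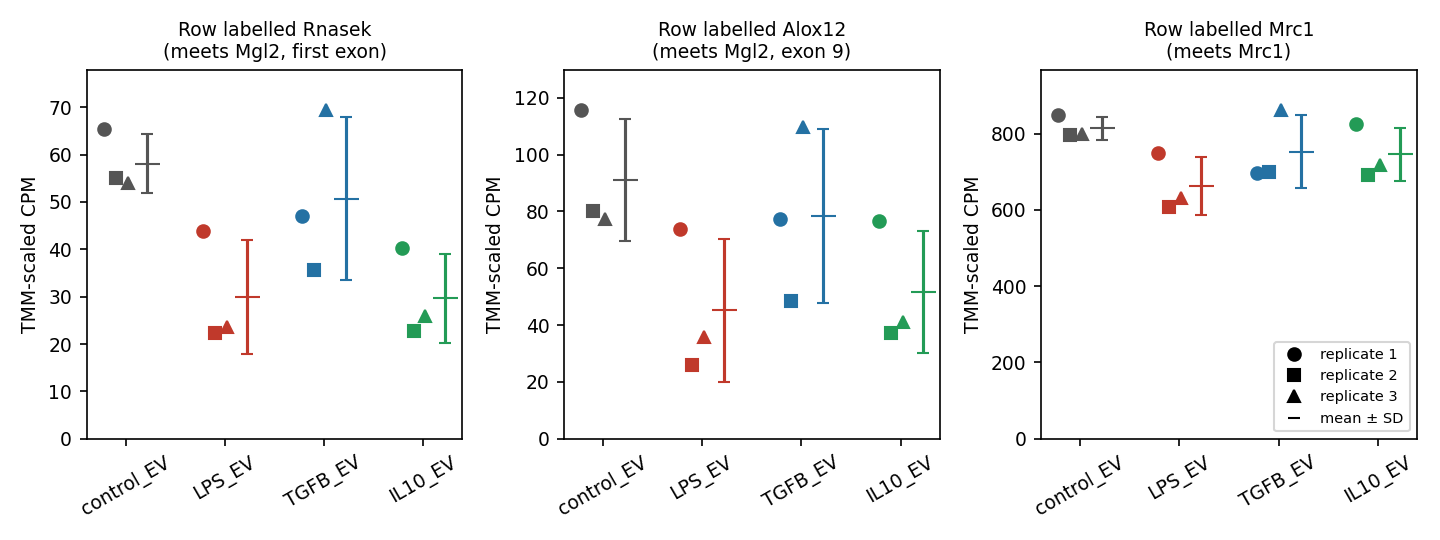
TMM-scaled CPM of the 3 rows in every library (points, shaped by replicate number) with the group mean ± SD (bars, n = 3), on axes from 0. Replicate 1 is the highest library of control_EV, LPS_EV and IL10_EV in each panel and replicate 3 the highest of TGFB_EV.

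The spread within groups was shared by the 3 rows. In each of the 4 groups the same library was the highest in all 3 rows: replicate 1 in control_EV, LPS_EV and IL10_EV, and replicate 3 in TGFB_EV. These libraries had the lowest total of their group in control_EV and LPS_EV, the highest in TGFB_EV and the middle one in IL10_EV, so total counts did not move with them in 1 direction. Within groups, the Mgl2 rows differed by up to 2.83-fold between libraries (Alox12 row, LPS_EV) and Mrc1 by at most 1.24-fold.

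The Mgl2 rows rose and fell together between libraries, though the Alox12 row spread more widely. The SD of log2 CPM within groups was 0.428 for the Rnasek row and 0.582 for the Alox12 row. After subtraction of each group's mean from log2 CPM, the rows labelled Rnasek and Alox12 correlated with Pearson r = 0.976 and Spearman rho = 0.965 over 12 libraries. An exact two-sided permutation within groups, over 1296 orders, gave p = 0.00077 for each (0.0023 after Benjamini-Hochberg adjustment over the 3 pairs of rows). Without LPS_EV replicate 1 and TGFB_EV replicate 3, the libraries farthest from the median, r was 0.961. The 4 highest libraries stood apart from the other 8. In those 8, chosen after the values were seen, r was 0.871, and 0.889 when centred again (exact permutation p = 0.125, the smallest this design allows), and the rows moved the same way in 4 of 4 groups. Among 7500 rows of at least 5 CPM, a comparison also added after the values were seen, the row with the highest within-group r to the Rnasek row was the Alox12 row, and the reverse held too. Mrc1, on another chromosome, ranked 2 for the Rnasek row and 5 for the Alox12 row. The median r to all rows was 0.00 and -0.01.

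Mrc1 followed both rows over all 12 libraries, with r = 0.959 to the Rnasek row (rho = 0.811) and 0.920 to the Alox12 row (rho = 0.790). The exact permutation p for r was 0.0031 for each (adjusted 0.0031), and for rho 0.025 and 0.029 (both 0.029 adjusted). For the Rnasek row r was 0.923 without LPS_EV replicate 1 and TGFB_EV replicate 3, and for the Alox12 row 0.855 without LPS_EV replicate 1 and IL10_EV replicate 1, the farthest libraries in each case. In the same 8 libraries as above, r was 0.336 and 0.462 when centred again and 0.602 and 0.465 when not, and the rows moved the same way in 2 of 4 groups. The 8 libraries were picked by the level of the Rnasek row and, centred again, hold a single difference per group, so they cannot tell the pairs of rows apart.

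The ratio of the Mgl2 rows varied 1.63-fold between libraries, and in 4 of 12 by more than counting error. The Rnasek row held between 34.5% (IL10_EV replicate 1, 95% Wilson interval 32.1 to 36.8) and 46.2% (LPS_EV replicate 2, 42.1 to 50.4) of the summed counts of the pair, which ran from 556 to 2235 per library. The interval held the share pooled over all libraries in 8. The others were control_EV replicate 1 and IL10_EV replicate 1, with a lower share, and LPS_EV replicate 2 and TGFB_EV replicate 2, with a higher one. Such intervals cover counting error only, as the reads carry no molecular identifiers. In control_EV, LPS_EV and IL10_EV the library with the highest level, replicate 1, had the lowest share of its group. In TGFB_EV replicate 1 had the lowest share, while replicate 3 had the highest level. Whether the share changes with level was not tested. The mean share was 39.3 ± 2.79% for control_EV, 41.1 ± 4.62% for LPS_EV, 39.7 ± 2.37% for TGFB_EV and 37.0 ± 2.22% for IL10_EV (SD, n = 3 each). Against control_EV, exact permutation tests of these shares (two-sided) gave p = 0.7 for LPS_EV, 1 for TGFB_EV and 0.3 for IL10_EV (adjusted 1, 1 and 0.9); groups of 3 cannot give a p below 0.1.

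**Figure D3:**
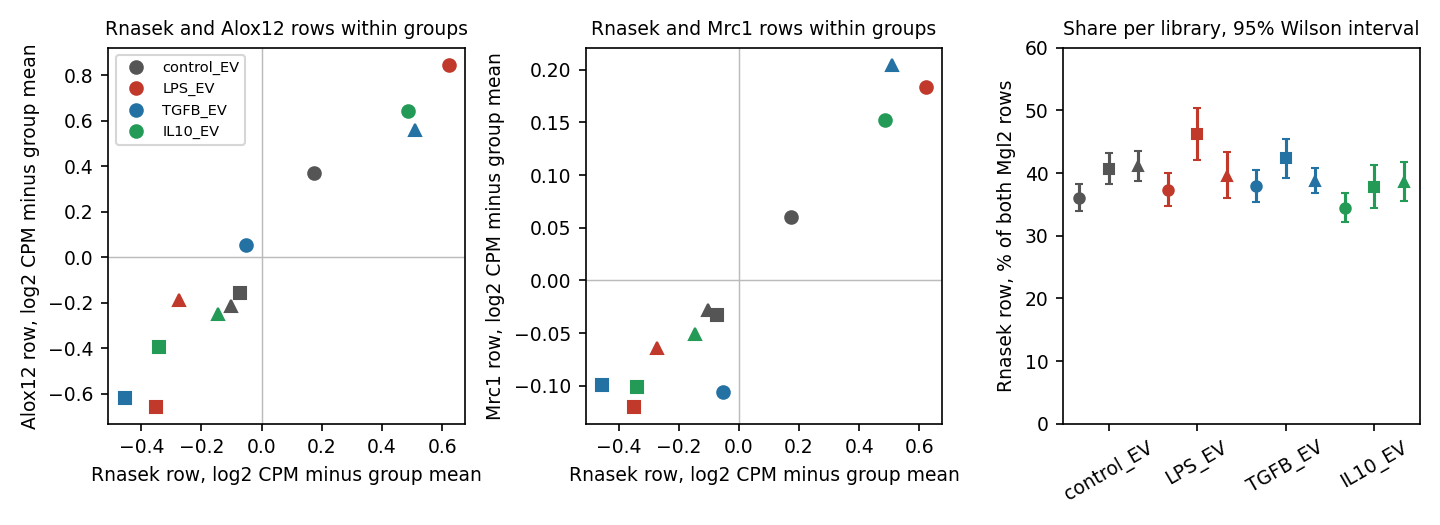
Left and middle: log2 CPM minus the group mean of the Rnasek row against that of the Alox12 row and of the Mrc1 row, 12 libraries coloured by group and shaped by replicate. Right: share of the Rnasek row in the summed counts of both Mgl2 rows per library with 95% Wilson intervals, between 34.5% and 46.2%.

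The comparison of LPS_EV with control_EV addresses how vesicles of LPS-treated microglia alter recipient cells. The log2 fold change was -0.96 (SE 0.16) for the Rnasek row, -1.01 (SE 0.21) for the Alox12 row and -0.30 (SE 0.06) for Mrc1, and in each the groups did not overlap. In the edgeR quasi-likelihood test with Benjamini-Hochberg adjustment, 3 of the 3 rows were called lower, where 0.276% of all 10523 rows tested were called lower, 0.542% higher and 0.817% in either direction. Since this comparison chose the rows, nothing is read from that count or from the lack of overlap. How many of all rows tested also lacked overlap was not counted. DESeq2 called 119 of 2851 rows that it gave an adjusted p, with the balance turned to 40 higher and 79 lower. The calls rested on single libraries and on the fit: none of the 3 was called without LPS_EV replicate 2 or in a fit of all 12 libraries, only the Rnasek row was called without control_EV replicate 1 or LPS_EV replicate 3, and DESeq2 called Mrc1 but not the Alox12 row, and gave the Rnasek row no adjusted p.

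IL10_EV against control_EV gave values of similar size for the Mgl2 rows. The log2 fold change was -0.97 (SE 0.18) for the Rnasek row and -0.82 (SE 0.24) for the Alox12 row, without overlap of the groups, and -0.13 (SE 0.07) for Mrc1, with overlap. The share of all rows tested that lacked overlap was not counted here either. Nothing is read from the lack of overlap, or from calls of the 3 rows in any setting, since this comparison also chose the rows. By edgeR, 0 of the 3 rows and 0 of all 10613 rows tested (0%) were called, with 334 rows at an unadjusted p under 0.05. DESeq2 called 1 row, the Rnasek row. In edgeR that row was also the only call without IL10_EV replicate 1. Both Mgl2 rows were called with the replicate number as a block (3 of all 10613 rows) and with no filter (22 of all 22317 rows). Both comparisons share the control libraries, so their values are not independent of each other.

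TGFB_EV against control_EV did not choose the rows, though it shares their controls. None of the 3 rows passed the edgeR test with Benjamini-Hochberg adjustment. The log2 fold change was -0.19 (SE 0.17, 95% interval -0.57 to 0.18, adjusted p = 0.870) for the Rnasek row. It was -0.21 (SE 0.22, -0.68 to 0.25, adjusted p = 0.882) for the Alox12 row and -0.11 (SE 0.08, -0.28 to 0.05, adjusted p = 0.828) for Mrc1. Of all 10524 rows 4 were called (0.038%), all lower. These values turned on TGFB_EV replicate 3, the highest library. Without it the Rnasek row fell by 0.49 (edgeR adjusted p = 0.0208) and Mrc1 by 0.23 (adjusted p = 0.0140), while the Alox12 row gave -0.54 (adjusted p = 0.0724). Calls then rose over the whole table, to 419 of 10768 rows tested, 107 higher and 312 lower. Without TGFB_EV replicate 2 the Rnasek and Alox12 rows gave 0.01 and 0.04.

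The treated groups were then compared with each other in a fit of all 12 libraries, using the libraries of LPS_EV and IL10_EV that had chosen the rows. LPS_EV minus TGFB_EV gave a log2 difference of -0.76 for the Rnasek row (95% interval -1.30 to -0.23, edgeR adjusted p = 0.234), -0.80 for the Alox12 row (-1.51 to -0.09, adjusted p = 0.338) and -0.18 for Mrc1 (-0.38 to 0.01, adjusted p = 0.416). TGFB_EV minus IL10_EV gave 0.78 (0.24 to 1.31, adjusted p = 0.623), 0.60 (-0.09 to 1.30, adjusted p = 0.701) and 0.01 (-0.18 to 0.21, adjusted p = 0.983) in the same order. LPS_EV minus IL10_EV gave 0.01 (-0.53 to 0.56, adjusted p = 0.999), -0.20 (-0.91 to 0.52, adjusted p = 0.967) and -0.17 (-0.36 to 0.02, adjusted p = 0.855). The intervals are unadjusted, and every pair overlapped in CPM. None of the 9 differences passed, and 0 of 11267 rows (0%) were called in any pair by edgeR, with 1442, 842 and 634 rows at an unadjusted p under 0.05 for LPS_EV with TGFB_EV, TGFB_EV with IL10_EV and LPS_EV with IL10_EV. DESeq2 called 98, 9 and 1 rows there. A difference of the TGFB_EV response from the other responses was thus not shown for any of the 3 rows.

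Rows that met genes beside Mgl2 did not pass the test in any comparison with control_EV. The 6 such rows, those meeting coding genes within 200 kb and reaching a mean of 1 CPM, had log2 fold changes between -0.46 and 0.42 in LPS_EV, -0.65 and 0.33 in TGFB_EV, and -0.62 and 0.57 in IL10_EV. The most abundant, labelled Dlg4, met Eif5a (a translation factor), Neurl4, Ybx2 and Gps2 and gave -0.07, -0.09 and 0.02 at 971 CPM. The row labelled Slc16a11 met Asgr2, a subunit of the asialoglycoprotein receptor and a galactose-binding lectin like Mgl2, and gave -0.29, -0.31 and 0.00 at 3.78 CPM. Beside Mrc1, 0 of 3 rows passed: those meeting Hacd1, Stam and Slc39a12 gave 0.02, 0.01 and -1.07 in LPS_EV, the last at 1.15 CPM.

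**Figure D4:**
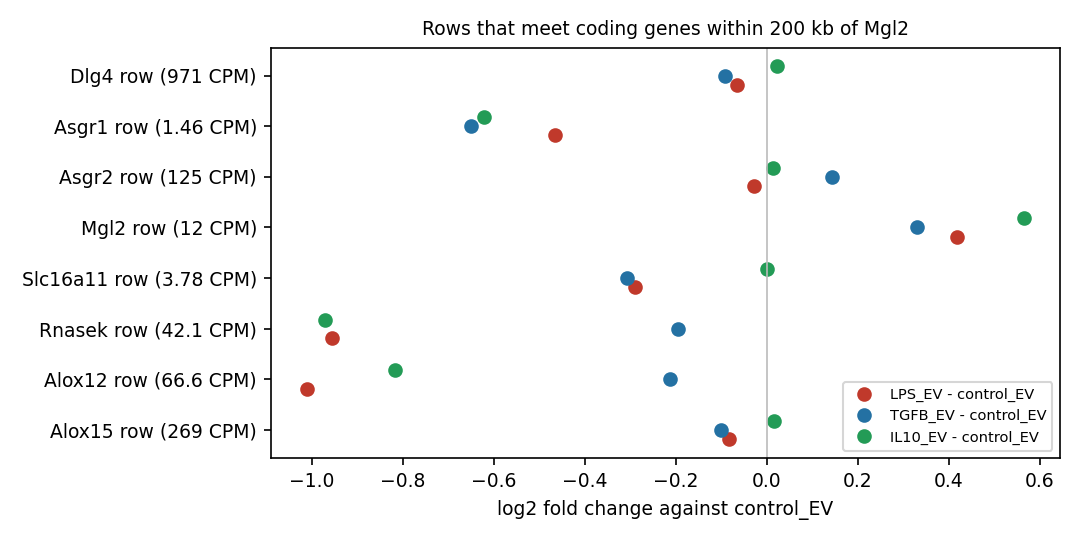
Log2 fold change against control_EV of the rows meeting coding genes within 200 kb of Mgl2, in order along the chromosome, named by their label with their mean CPM; points are the 3 vesicle groups. The rows labelled Rnasek and Alox12, which were chosen on the LPS_EV and IL10_EV values, are set beside 6 neighbours, none of which passed the test.

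Other genes of alternative activation were covered in part. Of 27 listed genes, 11 were met by a row of at least 1 CPM in a supported stretch, giving 13 rows; Arg1, Retnla, Chil3 and Clec10a were among those met by none. In LPS_EV 4 of the 13 were called lower and 0 higher, where 0.276% and 0.542% of all rows were. They were the 3 rows above, which this comparison chose, and the row labelled Klf4, which met its own gene, a transcription factor of macrophage polarisation, at 297 CPM (log2 fold change -0.27, SE 0.06, edgeR adjusted p = 0.0170). The median was -0.10 with the 3 rows and -0.07 over the other 10, against 0.00 for all rows tested. The row meeting Kdm6b (a histone demethylase, among 6 genes met) gave -0.06 at 507 CPM and that meeting Stat6, the transcription factor of IL-4 signalling, with Nemp1, gave -0.10 at 168 CPM; neither passed. In TGFB_EV and IL10_EV 0 of 13 rows were called, with medians of -0.14 and -0.11 against 0.00 for all rows. Over the other 10 rows the medians were -0.08 and -0.06. The IL10_EV comparison also chose the 3 rows, so its median with them is no separate result.

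Of 45 listed genes for lectin and scavenger receptors, 13 were met, by 15 rows. In LPS_EV 2 were called higher and 4 lower, where 0.542% and 0.276% of all rows were, and the median was -0.04. Over the 12 rows other than the 3 chosen on this comparison, 2 were called higher and 1 lower, with a median of 0.06, against 0.00 for all rows. The higher ones met Clec4d and Clec4e, activating lectins of myeloid cells, with log2 fold changes of 1.35 and 0.95. Their levels were low, at 5.39 and 6.65 CPM. The row meeting Clec4d is labelled Clec4e, and the row meeting Clec4e is labelled Vmn2r19 and also met Vmn2r19. Lower were the 3 rows above and the row labelled Cd72, which met Cd72, an inhibitory lectin-like receptor, and Tesk1, with -0.43 (edgeR adjusted p = 0.00773). The row labelled Tesk1 met the same pair of genes and gave -0.24 (edgeR adjusted p = 0.0804), which did not pass. The row meeting Lgals1, a galactose-binding galectin, with Nol12 gave -0.19 at 1353 CPM, and that meeting Siglec1, a sialic acid-binding receptor, gave 0.19 at 264 CPM; neither passed. In TGFB_EV and IL10_EV 0 of 15 were called, with medians of -0.11 and 0.00, and of -0.04 and 0.06 over the 12 rows other than the 3.

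Markers of the cells were checked by the gene met. Of 18 microglial and macrophage markers 9 were met, by 16 rows, among them Fcer1g at 1954 CPM, Tyrobp at 781 CPM and Csf1r, the receptor for the growth factor CSF1, at 380 and 288 CPM, all of which also met other genes. None of the 16 was called in any comparison with control_EV. No row of at least 1 CPM met the 5 neuron, 4 astrocyte or 4 dendritic cell markers; Mgl2 is also known in dendritic cells. Rows meeting B cell (3), T cell (2), oligodendrocyte (1) and endothelial or fibroblast (1) markers lay between 6.46 and 122.9 CPM and none was called.

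The rows most like the Mgl2 and Mrc1 rows over the 12 libraries were ranked by Pearson r of log2 CPM among 5743 named rows of at least 5 CPM. These values share libraries and group differences with the rows, and are a description. The summed Mgl2 rows were nearest to the rows labelled Tspyl1 (met Dse, r = 0.913), Frmpd1 (0.910), Raph1 (0.907), Mei1 (met Desi1 and Pmm1, 0.9003) and Ints6 (met Wdfy2 and Defb47, 0.896). Mrc1 was nearest to Frmpd1 (0.930), Otulin (0.912), Mylk4 (met Serpinb6b and Serpinb1c, 0.901), Mgat5b (met Mfsd11 and Jmjd6, 0.899) and Ablim1 (0.892); rows without a gene in brackets met their own. Frmpd1 was in both lists, at 9.61 ± 1.80 CPM for control_EV, 3.93 ± 1.92 for LPS_EV, 6.10 ± 2.69 for TGFB_EV and 4.65 ± 1.56 for IL10_EV (SD, n = 3 each).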

How the data were processed

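The authors deposited raw counts by Ensembl gene ID, as whole numbers, in 4 tables; 3 were used, since the other repeated one of them. Per the labels' protocols cDNA was made with SMART-Seq v4 and Nextera XT. DESeq2 is named in the submitters' processing notes; for the aligner, counter, build and annotation, nothing is given in the sources used here. Groups and replicate numbers came from sample titles. Totals ran from 10497757 to 13647007 counts, so 3 counts equal 0.220 to 0.286 CPM. Of 57010 rows, 52029 had a symbol.

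Tests across all rows used edgeR 4.0.16 (R 4.3.3, filterByExpr with a minimum count of 10, TMM, quasi-likelihood, Benjamini-Hochberg adjusted p under 0.05), with 6 libraries for comparisons with control_EV and 12 for other pairs. The SE is the log2 fold change divided by the square root of F, and intervals use the fit's degrees of freedom. DESeq2 1.42.0 was an alternative. Log2 CPM for correlations used a prior count of 1.

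Displacements were fitted with GENCODE M21 (GRCm38) in 100 bp steps, rewarding high counts on exons of 509 widely expressed genes and penalising counts off exons, without group labels. They gave 87 stretches, 74 of them supported (score at least 5 above distant displacements). Of 7296 rows of at least 5 CPM, 93.2% then met a coding exon, which the fit favours, and 18.4% their own gene. Both methods were tested on simulated data. The simulated displacements held over long stretches of a chromosome, with the widely expressed genes set high. That test therefore does not bear on the short placement found with a penalty of 5.

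The members, lists and rules were chosen with earlier results of these data known. Text names the 3 rows, rows near Mgl2 or Mrc1, up to 4 rows per list by highest CPM among those meeting a listed gene, and the 5 rows most like each gene. The rows labelled Klf4 and Cd72 fall within the 4 of their lists. List rows outside this (those meeting Clec4d and Clec4e, and that labelled Tesk1) were named after their values were seen. The Csf1r row at 288 CPM is also outside it, below a row meeting Spi1 at 359 CPM.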

Additional observations from a re-analysis of the deposited data

How the results depend on the processing

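Against control_EV, the 3 rows stayed negative in LPS_EV and IL10_EV in 13 of 13 alternatives. These comparisons chose the rows and the alternatives reuse the same libraries, so that count is a description and no support. Leaving out 1 library gave, for the rows labelled Rnasek, Alox12 and Mrc1, -1.34 to -0.78, -1.55 to -0.73 and -0.39 to -0.24 in LPS_EV, and -1.26 to -0.81, -1.21 to -0.61 and -0.21 to -0.08 in IL10_EV. In TGFB_EV it gave -0.49 to 0.0078, -0.54 to 0.040 and -0.23 to -0.063. For LPS_EV minus TGFB_EV it gave -1.15 to -0.48, -1.35 to -0.48 and -0.29 to -0.08. For LPS_EV minus IL10_EV it gave -0.37 to 0.29 (Rnasek; also -0.15 and -0.08 without IL10_EV replicates 2 and 3), -0.75 to 0.20 (Alox12; also 0.07 without LPS_EV replicate 2) and -0.27 to -0.09 (Mrc1). For TGFB_EV minus IL10_EV it gave 0.48 to 1.06, 0.28 to 1.002 and, for Mrc1, -0.094 to 0.10 (also -0.04 and -0.01 without IL10_EV replicates 2 and 3). None of the 3 rows passed in a pair of treatments when 1 library was left out. Counts of rows called for LPS_EV were 119 by DESeq2 (40 higher, 79 lower, against 57 and 29 by edgeR), 209 with the replicate block, 165 without a filter, 0 in the fit of 12 libraries and 18 to 127 leaving out 1 library. For TGFB_EV they were 17 (DESeq2), 111 (no filter), 0 (fit of 12) and 0 to 419. For IL10_EV they were 1 (DESeq2), 3 (replicate block), 22 (no filter) and 0 to 2. For LPS_EV with TGFB_EV they were 98 (DESeq2), 2 (replicate block), 120 (6 libraries) and 0 to 230; for LPS_EV with IL10_EV 1 (DESeq2) and 0 to 3; for TGFB_EV with IL10_EV 9 (DESeq2) and 0 to 1. The cause of these shifts was not tested. Of the IL10_EV calls, 2 of the 3 with the replicate block (10613 rows tested) and 2 of the 22 without a filter (22317 rows tested) were the Mgl2 rows. That comparison chose the rows, so nothing is read from these counts. Same-numbered libraries did not all deviate together (r from -0.45 to 0.27), so numbers were not taken to pair samples. The agreement of the Mgl2 rows ran from r = 0.960 to 0.984 leaving out 1 library, and was 0.889 in the 8 libraries without the highest of each group. With a penalty of 5 the displacement was -571 kb for both Mgl2 rows and 2.1 kb for Mrc1.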
